A study of Homo sapiens with 6 samples.

Results

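The genes described here are 10 immediate early and AP-1 genes, namely FOS, FOSB, FOSL1, FOSL2, JUN, JUNB, JUND, EGR1, MYC and DUSP1, which were taken by symbol from the 25369 genes of the files. All 10 were present. Poly(A) RNA of Caki2 cells, a human clear cell renal carcinoma line without PBRM1 protein, was sequenced in 3 samples with an empty doxycycline-inducible lentiviral vector (Caki2+Vector) and in 3 samples in which the same vector carried PBRM1 (Caki2+PBRM1). PBRM1 encodes a subunit of the PBAF chromatin remodeling complex. Both lines were grown in McCoy's 5A medium with fetal bovine serum and were given doxycycline at 2 µg/mL, so serum and doxycycline were shared by the groups and the labels name no serum stimulation. Each line is a stable lentiviral line of a single parental line, selected with antibiotic, with PBRM1 driven from a tet-responsive promoter through the rtTA3 activator. The study calls the samples of a group biological replicates. The labels do not say that they came from separate cultures, and p-values then measure only the spread between these samples.

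AP-1 is a dimeric transcription factor in which a JUN family protein pairs, through a leucine zipper, with a FOS family protein, another JUN protein or a related bZIP protein. FOS, FOSB, EGR1, JUN, JUNB, MYC and DUSP1 belong to the immediate early genes, which serum and growth factors induce within minutes through MAP kinases and existing transcription factors, and whose transcripts decay quickly. FOSL1 and FOSL2 encode the FOS proteins that predominate later and in growing carcinoma cells, and JUND is a largely constitutive JUN gene. EGR1 is a zinc finger transcription factor, MYC a transcription factor that drives growth genes as a dimer with MAX, and DUSP1 a phosphatase that inactivates MAP kinases.

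The normalized count of PBRM1 lay between 182.2 and 195.0 in Caki2+Vector. It lay between 2431.7 and 2682.4 in Caki2+PBRM1, as the labels have it, and reads of the endogenous gene and of the construct are not separated. Normalized counts are the authors' read counts per gene divided by a size factor for the sample. Between 7312955 and 10835355 reads were counted on genes in each sample. Of 10 kidney epithelial markers, PAX8, CDH16, KRT8 and KRT18 had at least 387.2 normalized counts in every sample. PAX2 had only 20.4 to 34.0, EPCAM 10.4 to 19.6 and CA9 0.0 to 15.2. Of 10 markers of other cell types, CD3E, HBB and ALB were at 0 in every sample, and PTPRC, PECAM1 and VWF did not exceed 5.7. Those 10 markers summed to 2168 to 2341 normalized counts in the vector samples, most of it CD68, and to 2081 to 2137 in the PBRM1 samples. CD68 was lower in Caki2+PBRM1 (-0.11, adjusted p = 0.0461 from limma), a call lost when any 1 sample but Caki2+Vector A was left out. Of the 9 tested kidney markers 4 were higher, led by CDH6 (1.12) and CDH16 (0.40), and 2, the keratins KRT8 and KRT18, lower. Among all tested genes, 16.2% were higher and 13.0% lower, beside these marker shifts. The part of these shifts in the results was not tested. Caki2+Vector A stood apart from its replicates. The chi-square of its recovered reads per degree of freedom was 3.09 against Caki2+Vector B and 2.84 against Caki2+Vector C, while the other pairs of replicates had 1.19 to 1.34 and sampling noise alone gives 1. Results are therefore given with and without this sample.

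Of the 10 genes, 4 were upregulated in Caki2+PBRM1 (JUN, JUND, FOSL2 and DUSP1), 1 was downregulated (MYC), and 5 did not pass the threshold (FOS, FOSB, FOSL1, JUNB and EGR1). The changes were moderate. The upregulated genes were 23.0% to 37.4% higher and MYC was 18.9% lower. The test was limma's moderated test on log2(normalized count + 1), with an adjusted p under 0.05 over the 13303 genes that had at least 10 normalized counts in at least 3 samples, and each of the 10 genes passed that filter. Of all tested genes, 29.2% passed the threshold, with 16.2% higher and 13.0% lower in Caki2+PBRM1. Without Caki2+Vector A, 4 of the 10 were higher and 3 lower (MYC, FOSL1 and JUNB), beside 16.9% and 14.4% of all tested genes and 31.3% in either direction. With all samples, the groups did not overlap in 6 of the 10 genes and in 41.7% of all tested genes. The median log2 fold change was 0.32 over the 10 genes and -0.0036 over all tested genes. When the 6 libraries were scaled by their totals alone, the share of higher genes among all calls fell from 55.4% to 36.9%, the median of all genes became -0.06, and the 5 calls among these genes stayed. These are bulk RNA samples, in which a change in some of the cells and a change in the RNA of each cell cannot be told apart.

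**Figure D1:**
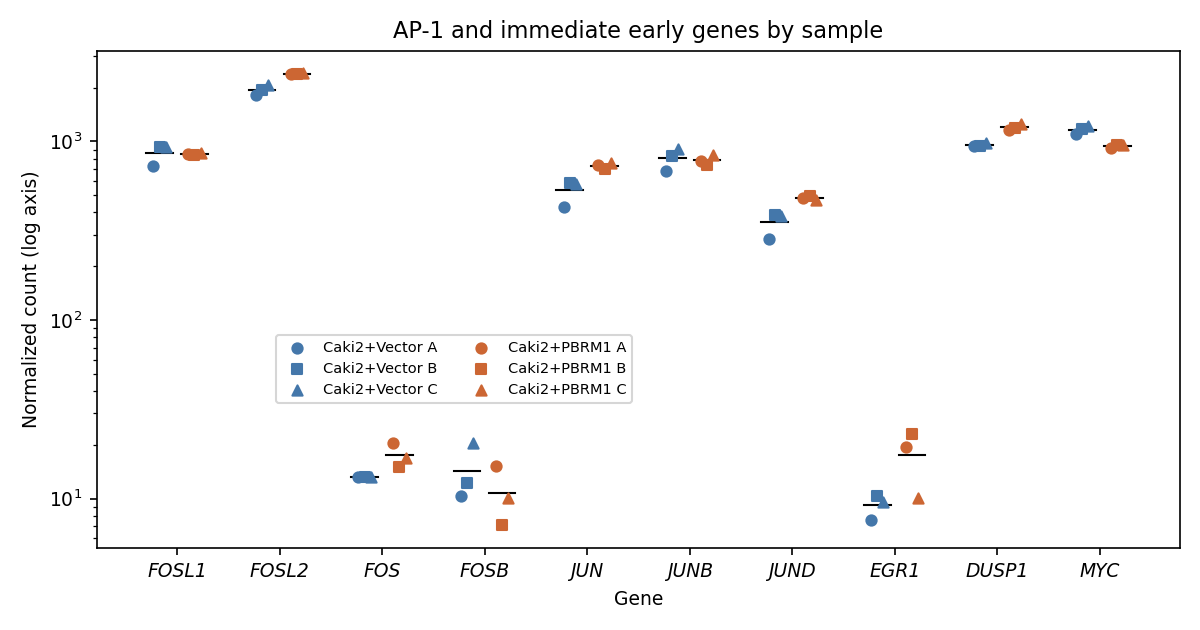
Normalized counts of the 10 genes on a log axis, with Caki2+Vector in blue and Caki2+PBRM1 in orange, 1 marker shape for each replicate letter and a line at the mean of 3 samples. JUN, JUND, FOSL2 and DUSP1 lie higher and MYC lower in Caki2+PBRM1 without overlap, and FOS, FOSB and EGR1 have 7.1 to 23.1 normalized counts.

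The promoters of the 4 genes that were upregulated together, and of EGR1, the low gene with the highest log2 fold change, are shown. They hold short motifs, the same in JUND and DUSP1, of kinds through which immediate early genes are known to be induced. They are RefSeq sequences on GRCh38.p14, from 250 bases before the transcription start to base 30 after it, at chr1:58784018-58784297 (minus strand) for JUN, chr19:18281593-18281872 (minus strand) for JUND, chr2:28392608-28392887 (plus strand) for FOSL2, chr5:172771166-172771445 (minus strand) for DUSP1 and chr5:138465229-138465508 (plus strand) for EGR1. Capitals mark the AP-1 site TGACTCA, its variant TGACATCA, the cyclic AMP response element TGACGTCA and the CArG box, the core of the serum response element.
JUN: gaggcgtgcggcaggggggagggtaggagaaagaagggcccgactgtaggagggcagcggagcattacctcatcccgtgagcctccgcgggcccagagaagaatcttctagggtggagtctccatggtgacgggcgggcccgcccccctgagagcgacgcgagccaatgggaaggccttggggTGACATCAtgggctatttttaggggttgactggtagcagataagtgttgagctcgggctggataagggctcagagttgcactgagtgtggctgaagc
JUND: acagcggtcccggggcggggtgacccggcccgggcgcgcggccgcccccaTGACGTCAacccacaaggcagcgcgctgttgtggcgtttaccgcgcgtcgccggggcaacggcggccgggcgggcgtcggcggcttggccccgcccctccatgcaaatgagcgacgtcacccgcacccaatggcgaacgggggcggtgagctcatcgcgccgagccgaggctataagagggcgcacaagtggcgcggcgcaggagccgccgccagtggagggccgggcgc
FOSL2: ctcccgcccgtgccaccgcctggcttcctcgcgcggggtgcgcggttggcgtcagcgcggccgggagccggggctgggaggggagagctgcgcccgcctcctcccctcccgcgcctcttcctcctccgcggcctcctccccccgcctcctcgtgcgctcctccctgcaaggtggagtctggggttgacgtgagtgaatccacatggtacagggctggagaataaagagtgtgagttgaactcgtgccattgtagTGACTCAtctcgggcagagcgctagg
DUSP1: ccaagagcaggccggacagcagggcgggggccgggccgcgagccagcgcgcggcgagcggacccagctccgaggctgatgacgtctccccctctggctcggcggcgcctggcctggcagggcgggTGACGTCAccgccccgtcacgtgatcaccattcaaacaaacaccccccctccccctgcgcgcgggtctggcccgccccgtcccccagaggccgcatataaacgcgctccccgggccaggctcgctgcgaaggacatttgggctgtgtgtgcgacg
EGR1: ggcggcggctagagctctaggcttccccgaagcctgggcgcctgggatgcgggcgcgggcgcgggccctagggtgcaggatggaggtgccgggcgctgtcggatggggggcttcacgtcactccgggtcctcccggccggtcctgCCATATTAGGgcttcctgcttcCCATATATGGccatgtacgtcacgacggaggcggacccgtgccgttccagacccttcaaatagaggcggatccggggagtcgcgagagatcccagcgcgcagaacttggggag

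JUN held the variant TGACATCA from base -67, FOSL2 held TGACTCA from base 5 after the start, and JUND and DUSP1 held TGACGTCA from bases -200 and -125. EGR1 held CArG boxes from bases -105 and -83. In all 35116 promoters of 300 bases, from 250 before to 50 after the start and on both strands, TGACTCA was found in 4.95%, TGACATCA in 2.61%, TGACGTCA in 1.85% and a CArG box in 1.29%. The same window was searched for 8 of the 10 genes, without FOSL1 and MYC. The TATA box TATAAA was in FOS, FOSB, JUNB and DUSP1 (11.5% of all promoters), CCAAT in JUN, JUNB and JUND (34.6%), and CACGTG in DUSP1 (7.26%). GGGCGG was in 6 of the 8, including the 4 upregulated genes, and in 45.0% of all promoters. The EGR sites GCGGGGGCG and GCGTGGGCG, the former of which can overlap GGGCGG, were in none of the 8 windows and in 5.07% and 0.795% of all promoters. These are matches of letters and not measured binding sites.

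JUN encodes c-Jun, the JUN protein that pairs most widely. It had 431.7, 585.8 and 580.1 normalized counts in Caki2+Vector A, B and C and 736.6, 703.1 and 755.4 in Caki2+PBRM1 A, B and C. Every Caki2+PBRM1 sample was above every Caki2+Vector sample, and Caki2+Vector A was the lowest. The means were 532.5 ± 87.4 and 731.7 ± 26.5 (SD, n = 3 each), and the log2 fold change from limma 0.47 (adjusted p = 0.00332 from limma, SE 0.10). Without Caki2+Vector A the log2 fold change was 0.33 (adjusted p = 1.36e-06 from limma). JUN lies on chromosome 1 of GRCh37, from 59242517 to 59249720 on the minus strand, with no overlapping gene in GENCODE.

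JUND followed the same pattern. Its normalized counts were 285.9, 387.4 and 383.5 in Caki2+Vector A, B and C and 480.9, 494.2 and 470.0 in Caki2+PBRM1 A, B and C. JUND had a log2 fold change of 0.46 (adjusted p = 0.000666 from limma, SE 0.09), and 0.32 without Caki2+Vector A (adjusted p = 4.66e-05). JUND is a gene of 1 exon on chromosome 19 of GRCh37, from 18390504 to 18392432 on the minus strand. Of the 10 genes it had the highest GC content in its longest transcript, 69.9%.

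JUNB, which encodes a JUN protein that often opposes c-Jun, had 678.8, 825.7 and 908.5 normalized counts in Caki2+Vector and 778.8, 740.4 and 838.5 in Caki2+PBRM1. The groups overlapped. Its log2 fold change was -0.025 with a 95% interval from -0.22 to 0.17 (adjusted p = 0.867 from limma), so a rise as large as that of JUN or JUND lay outside the interval. Without Caki2+Vector A, JUNB was lower in Caki2+PBRM1, with a log2 fold change of -0.14 (adjusted p = 0.0322). JUNB overlaps HOOK2 on the opposite strand, and the counting is not stated to use strand.

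The makeup of the JUN family transcripts separated the groups. Per kilobase of exon, JUNB was the most abundant JUN transcript in both groups, at 440 ± 64 normalized counts per kilobase without PBRM1 and 429 ± 27 with it (SD, n = 3 each). JUND had 183 ± 30 and 250 ± 6, and JUN had 147 ± 24 and 202 ± 7. JUNB took 55.46% to 58.11% of the family total without PBRM1 and 47.33% to 50.33% with it, a difference of -8.49 percentage points. The share of JUND averaged 23.7% and 28.4%, and that of JUN 19.1% and 22.9%. The groups did not overlap for any of the 3 shares (exact two-sided permutation p = 0.1 for each, the smallest that 3 against 3 allow). The shares of a sample are parts of 1 total, so these are not 3 separate results. Normalized counts did not overlap between groups in 41.7% of all tested genes, and no such rate was computed for shares. Without Caki2+Vector A the difference for JUNB was -8.04 percentage points. The summed level of the family overlapped between groups, with 638.2 to 855.4 per kilobase without PBRM1 and 854.8 to 910.3 with it.

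**Figure D2:**
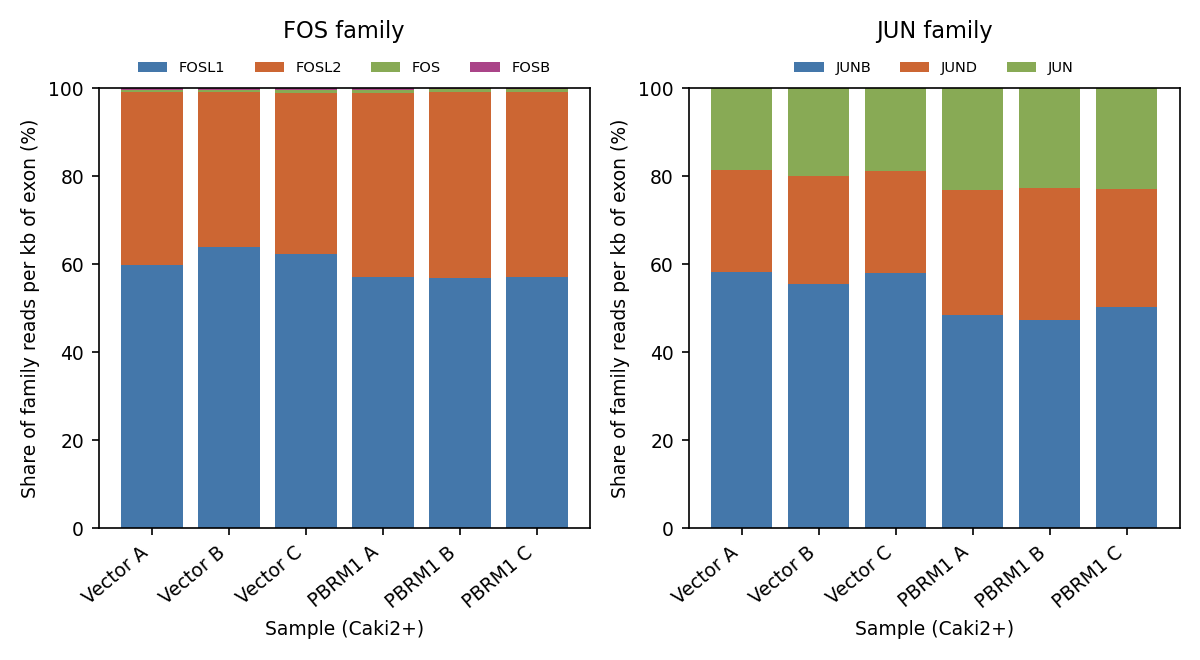
Share of each gene in the summed reads per kilobase of exon of the FOS family (left) and the JUN family (right), in percent, with 1 bar for each sample. JUNB takes 47.33% to 50.33% in Caki2+PBRM1 against at least 55.46% in Caki2+Vector, and FOSL1 with FOSL2 fills nearly the whole FOS family in every sample.

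FOSL2, which encodes Fra-2, was upregulated. It had normalized counts of 1812.9, 1942.4 and 2065.1 in Caki2+Vector A, B and C and 2370.0, 2386.5 and 2403.7 in Caki2+PBRM1 A, B and C. All Caki2+PBRM1 samples were higher and lay close together. FOSL2 had a log2 fold change of 0.30 (adjusted p = 4.09e-06 from limma, SE 0.04), and 0.25 without Caki2+Vector A (adjusted p = 2.76e-08). FOSL2 lies on chromosome 2 of GRCh37, from 28615315 to 28640184 on the plus strand, where GENCODE also places the antisense RNA FOSL2-AS1 and a noncoding RNA on the same strand.

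FOSL1, which encodes Fra-1, had 729.9, 929.7 and 927.7 normalized counts in Caki2+Vector and 854.6, 844.4 and 861.1 in Caki2+PBRM1. The Caki2+PBRM1 values fell between those of Caki2+Vector A and those of B and C. The log2 fold change was -0.01 with a 95% interval from -0.16 to 0.15 (adjusted p = 0.963 from limma). Without Caki2+Vector A it was -0.12 (adjusted p = 0.0461).

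Per kilobase, FOSL1 exceeded FOSL2 in every sample, and FOSL1 with FOSL2 made up nearly the whole FOS family. The share of FOSL1 was 59.88% to 63.96% in Caki2+Vector, and in Caki2+PBRM1 it was 56.88% to 57.11%. That of FOSL2 was 35.21% to 39.19% and 41.73% to 42.36%. The groups did not overlap for either share, with differences of -5.05 and 5.03 percentage points (exact two-sided permutation p = 0.1 for each, the smallest possible). Since both genes together fill nearly the whole family, these differences mirror each other and are not separate results. Normalized counts of 41.7% of all tested genes also did not overlap, and shares were not computed for families other than FOS and JUN. FOS took 0.53% to 0.81% and FOSB 0.16% to 0.47% of the family in the 6 samples.

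FOS and FOSB, the classical early-induced members, had few reads. FOS had 13.3, 13.2 and 13.2 normalized counts in Caki2+Vector and 20.6, 15.1 and 16.8 in Caki2+PBRM1, from 11 to 20 reads in a sample. Its groups did not overlap, but the log2 fold change of 0.37 had a 95% interval from -0.19 to 0.93 (adjusted p = 0.338 from limma). FOSB had 10.4, 12.3 and 20.4 against 15.2, 7.1 and 10.1, with overlapping groups and a log2 fold change of -0.39 (95% interval -1.07 to 0.295, adjusted p = 0.418). The SE was 0.27 for FOS and 0.33 for FOSB, against 0.10 for JUN, and no difference was detected for either gene at this depth. The value of FOSB rested on single samples, and was -0.12 without Caki2+Vector C, -0.15 without Caki2+PBRM1 B and -0.64 without Caki2+PBRM1 A. FOSB overlaps ERCC1 on the opposite strand.

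EGR1 had 7.6, 10.4 and 9.6 normalized counts in Caki2+Vector and 19.5, 23.1 and 10.1 in Caki2+PBRM1, from 8 to 26 reads in a sample. Caki2+PBRM1 C lay within the range of Caki2+Vector. The log2 fold change was 0.80 (SE 0.32) and did not pass the threshold (adjusted p = 0.0625 from limma). It passed without Caki2+PBRM1 C (1.14, adjusted p = 0.017), in the edgeR test of recovered reads (0.91, adjusted p = 0.0407) and after correction for GC content and length (0.82, adjusted p = 0.0406), but not with DESeq2 (0.93, adjusted p = 0.178). NAB1 and NAB2, corepressors that bind EGR1, did not pass in limma, edgeR or DESeq2. NAB2 had 0.20 (unadjusted p = 0.0257, adjusted p = 0.0771, limma), and it passed without Caki2+Vector B and after the GC and length correction.

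DUSP1 dephosphorylates the JNK, p38 and ERK kinases. It had 939.1, 942.9 and 975.6 normalized counts in Caki2+Vector and 1165.5, 1183.0 and 1253.1 in Caki2+PBRM1. The replicates of each group were close and the groups separate. The means were 952.5 ± 20.1 and 1201 ± 46 (SD, n = 3 each), and the log2 fold change 0.33 (adjusted p = 3.44e-06 from limma, SE 0.05). Caki2+Vector A was within 0.03 (log2) of the mean of B and C here, and without it the log2 fold change was 0.32. Per kilobase of exon, DUSP1 had 473 ± 10 and 596 ± 23 normalized counts. It was above the other 9 genes in every Caki2+PBRM1 sample. In Caki2+Vector its order with FOSL1 and JUNB was not fixed, since FOSL1 was higher in Caki2+Vector B and C (492.7 and 491.6 against 468.4 and 484.7) and lower in Caki2+Vector A (386.8 against 466.5). It lies on chromosome 5 of GRCh37, from 172195099 to 172198198 on the minus strand, and GENCODE places a noncoding RNA on the opposite strand.

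MYC was the downregulated gene of the 10. It had 1106.7, 1168.7 and 1220.1 normalized counts in Caki2+Vector and 916.4, 959.9 and 957.6 in Caki2+PBRM1. Every Caki2+PBRM1 sample was below every Caki2+Vector sample. The means were 1165 ± 57 and 944.6 ± 24.5 (SD, n = 3 each). The log2 fold change was -0.30 (adjusted p = 2.3e-05 with limma, SE 0.05), and -0.34 without Caki2+Vector A (adjusted p = 8.47e-09). MYC lies on chromosome 8 of GRCh37, from 128747680 to 128755197 on the plus strand, and overlaps the noncoding CASC11 on the opposite strand.

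**Figure D3:**
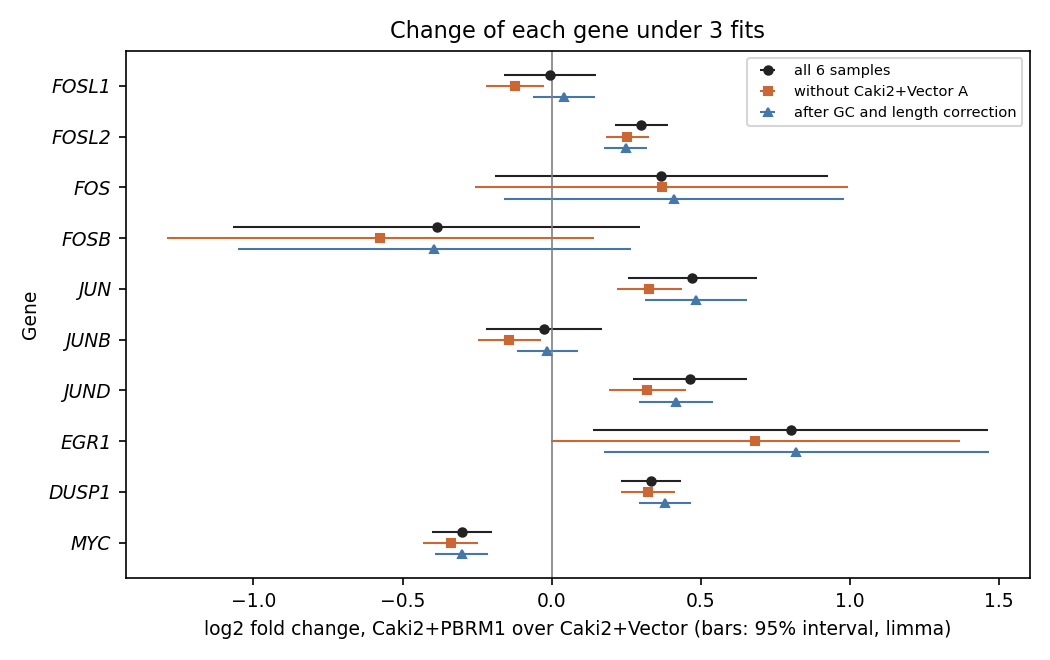
Log2 fold change of each gene, Caki2+PBRM1 over Caki2+Vector, with 95% intervals from limma, for all 6 samples (black), without Caki2+Vector A (orange) and after correction for GC content and length (blue). JUN, JUND, FOSL2, DUSP1 and MYC stay on the same side of 0 in each fit, FOSL1 and JUNB lie at -0.12 and -0.14 without Caki2+Vector A, and FOS, FOSB and EGR1 have wide intervals.

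Among the 10 genes, JUN, JUND, JUNB, FOSL1, EGR1 and FOSB were lower in Caki2+Vector A than in the mean of Caki2+Vector B and C by more than 0.3 on the log2 scale. The difference was -0.43 for JUN, -0.43 for JUND, -0.35 for JUNB and -0.35 for FOSL1, but -0.14 for FOSL2, -0.11 for MYC and -0.03 for DUSP1. Over all tested genes with an annotation match, this difference moved with the GC content of the longest transcript. Its median was 0.084 in the 2596 genes of lowest GC content (median 38.1%) and -0.165 in the 2596 of highest (median 61.3%). JUN (56.1% GC), FOSL1 (58.7%), JUNB (64.9%) and JUND (69.9%) lay below this last median of -0.165. JUNB and JUND exceed the median GC content of those genes, so they were not compared with genes of like GC content. The correction that follows takes GC content and length together, so the part of GC content alone was not tested. After correction for GC content and length in each sample, the log2 fold changes were 0.48 for JUN, 0.42 for JUND, 0.25 for FOSL2, 0.38 for DUSP1 and -0.30 for MYC, and all 5 passed the threshold, as did 34.8% of all genes in that fit. FOSL1 had 0.04 and JUNB -0.02 there, without passing. Leaving out Caki2+Vector A gave FOS 0.37, FOSB -0.57 and EGR1 0.68, none past the threshold.

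**Figure D4:**
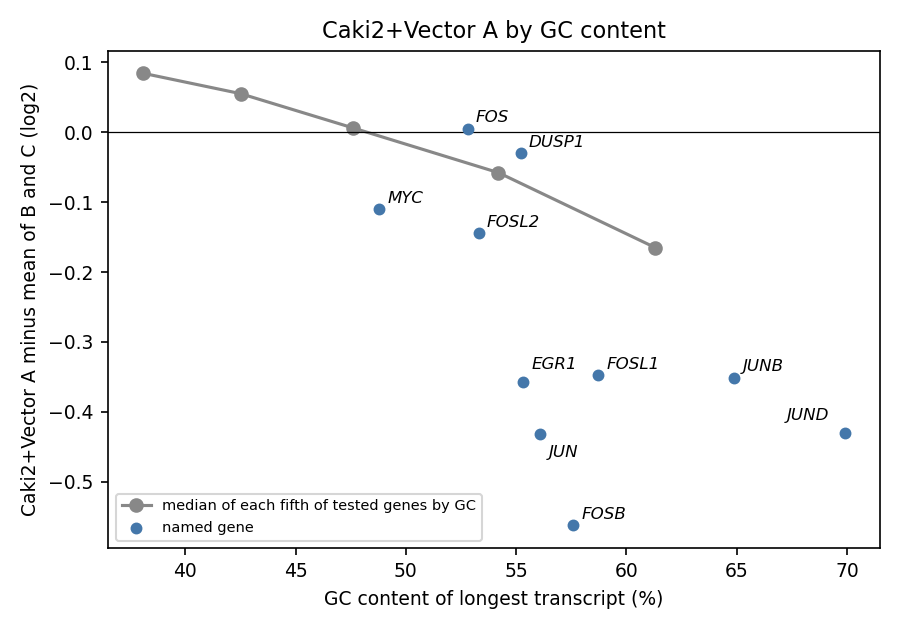
Difference of Caki2+Vector A from the mean of Caki2+Vector B and C (log2) against the GC content of the longest transcript (percent), for the 10 genes (blue) and as the medians of 5 equal bins of tested genes (grey). The medians run from 0.084 to -0.165 with rising GC content, and JUN and JUND lie at -0.43.

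Other members of the AP-1 family did not pass the threshold. Of 13 bZIP partners, among them ATF2, ATF3, JDP2, the BATF genes and the MAF genes, 11 were tested. Beside 29.2% of all tested genes with limma, 0 of these 11 passed the threshold in limma, edgeR or DESeq2. Their log2 fold changes ran from -0.23 to 0.71 around a median of 0.03. MAF was the 1 gene with an unadjusted p under 0.05 (0.0165, limma), and it passed as higher without Caki2+Vector B. ATF3, an early gene induced by stress, had normalized counts of 362.8 to 371.1 without PBRM1 and of 337.4 to 369.4 with it.

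Other immediate early genes moved in both directions. Of 30 on the list, 25 were tested, 9 were higher and 4 lower, beside 16.2% and 13.0% of all tested genes. The list had a median log2 fold change of 0.09. CTGF, a secreted matrix-associated protein, rose from 901.2 ± 30.7 to 2296 ± 68 normalized counts (SD, n = 3 each), a log2 fold change of 1.35 (adjusted p = 6.12e-20 from limma). EGR2, a relative of EGR1, rose from 28.6 ± 10.0 to 51.1 ± 2.1 (log2 fold change 0.88, adjusted p = 0.00305), and 0.56 was its log2 fold change without Caki2+Vector A. TRIB1, a pseudokinase, had -0.28 (adjusted p = 0.00147). ZFP36, which promotes decay of AU-rich transcripts, had -0.42 (adjusted p = 0.0322), and lost its call whichever sample was left out (adjusted p from 0.0543 to 0.0903). With a sample left out, 1 or 2 genes of the list were lower instead of 4. EGR3, EGR4, NR4A2, NR4A3 and ARC, which are induced strongly by fresh stimulation, were under the filter, with at most 11.9 normalized counts.

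Of the genes that act above these, the transcription factors had few calls and the kinases had calls in both directions. Of 12 genes for SRF, its ternary complex and MRTF partners and CREB factors, ELK1 (0.26, adjusted p = 0.00535) and CREM (0.33, adjusted p = 0.00343) were higher by limma and 0 were lower. MKL2, an MRTF gene, was the 1 lower gene by limma at an unadjusted p under 0.05 (log2 fold change -0.17). In this list edgeR called 1 lower and DESeq2 0. Without Caki2+Vector A 3 were higher and 2 lower, beside 16.9% and 14.4% of all tested genes. SRF had a log2 fold change of 0.08 (adjusted p = 0.445). Of 22 MAP kinases and kinases next to them, 5 were higher and 4 lower, with a median log2 fold change of -0.04. Beside both lists, 16.2% of all tested genes were higher and 13.0% lower by limma. Scaling by library totals gave 3 higher and 6 lower kinase genes. Over all 13303 tested genes, that scaling gave 1624 higher and 2777 lower. MAPK7, which encodes ERK5, had a log2 fold change of 0.35 (adjusted p = 0.0178). MAPK11, a p38 kinase, had -0.51 (adjusted p = 1.12e-05) and RPS6KA5, the nuclear kinase MSK1, -0.46 (adjusted p = 0.00023). MAPK7 lost its call without Caki2+Vector B, Caki2+PBRM1 B or Caki2+PBRM1 C (adjusted p = 0.11, 0.0539 and 0.0731), and the higher genes of the list numbered 3 without Caki2+PBRM1 B and 2 without Caki2+PBRM1 C, which also left 2 lower.

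Several phosphatases related to DUSP1 rose as well. Of 9 other MAP kinase phosphatases, all were tested, 5 were higher and 1 lower, beside 16.2% and 13.0% of all tested genes. The list had a median log2 fold change of 0.21. DUSP6, an ERK-specific phosphatase and itself a product of ERK signaling, rose from 62.9 ± 6.3 to 126.9 ± 18.4 normalized counts, with 0.995 on the log2 scale (adjusted p = 1e-06 from limma). DUSP7 had 0.84 (adjusted p = 2.42e-05) and DUSP4, which like DUSP1 is nuclear, 0.21 (adjusted p = 0.00349). DUSP16, which acts on JNK and p38, fell, with -0.335 (adjusted p = 0.000548).

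Known AP-1 target genes did not move one way. Of 24 on the list, 17 were tested, 4 were higher and 3 lower, beside 16.2% and 13.0% of all tested genes. The list had a median log2 fold change of 0.08. PLAU, the urokinase plasminogen activator, rose from 63.8 ± 12.0 to 125.0 ± 13.9 normalized counts, with 0.97 on the log2 scale (adjusted p = 4.03e-06 from limma), and GJA1, the gap junction protein connexin 43, had 0.35 (adjusted p = 3.92e-07). CLU, clusterin, had -0.38 (adjusted p = 1.35e-06) and HMOX1, heme oxygenase, -0.22 (adjusted p = 0.00583), with overlapping groups for HMOX1. CCND1, a cyclin gene that AP-1 and ERK signaling induce, had 0.08 and did not pass. Without Caki2+Vector A, 6 genes of the list were higher and 5 lower, beside 16.9% and 14.4% of all tested genes. MMP1, MMP3, MMP10, MMP13, IL11, IVL and DCN were under the filter.

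Of 12 genes of the MAX network, in which MYC acts, 10 were tested. Of these, 4 were higher and 0 lower, beside 16.2% and 13.0% of all tested genes. Also 0 of these 10 were lower at an unadjusted p under 0.05 (limma) or with edgeR or DESeq2. In the list, 1 was lower without Caki2+Vector A and 2 with scaling by library totals. Of all 13303 tested genes, 1918 and 2777 were lower in these fits. MXI1 and MXD4, which pair with MAX and repress genes that MYC activates, rose from 193.2 ± 1.4 to 296.5 ± 4.9 and from 123.9 ± 6.0 to 185.7 ± 2.1 normalized counts (log2 fold changes 0.62 and 0.58, adjusted p = 4.67e-07 and 2.8e-05 from limma). MXD3 had 0.30 (adjusted p = 0.0221) and MYCL, a MYC relative, 0.865 at 9.65 and 18.3 normalized counts (adjusted p = 0.0317). MYCL lost its call without Caki2+Vector C, Caki2+PBRM1 A or Caki2+PBRM1 B (adjusted p = 0.105, 0.0883 and 0.159), and MXD3 without Caki2+Vector B, Caki2+PBRM1 A or Caki2+PBRM1 B (adjusted p = 0.081, 0.0827 and 0.0686), so 2 genes of the list were higher without Caki2+PBRM1 A or B. MAX had 0.15 (adjusted p = 0.19).

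Of 27 MYC target genes, many of them for ribosome production, 24 were tested. Of these, 11 were lower and 2 higher, beside 13.0% and 16.2% of all tested genes. The list had a median log2 fold change of -0.16. HSPD1, a mitochondrial chaperone, fell from 10010 ± 336 to 8104 ± 104 normalized counts, with -0.305 on the log2 scale (adjusted p = 1.66e-08 from limma). RCL1, a factor of ribosomal RNA processing, had -0.29 (adjusted p = 0.044), and lost its call when any 1 sample but Caki2+PBRM1 B was left out (adjusted p from 0.0747 to 0.184). The higher genes were LDHA, lactate dehydrogenase A, and SHMT2, a mitochondrial enzyme of serine use, with 0.24 (adjusted p = 7.88e-08) and 0.45 (adjusted p = 5.6e-10). Without Caki2+PBRM1 B, 7 were lower, and with scaling by library totals alone 18 were. Of all 13303 tested genes, 1276 and 2777 were lower in these fits, against 1734 in the main fit.

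**Figure D5:**
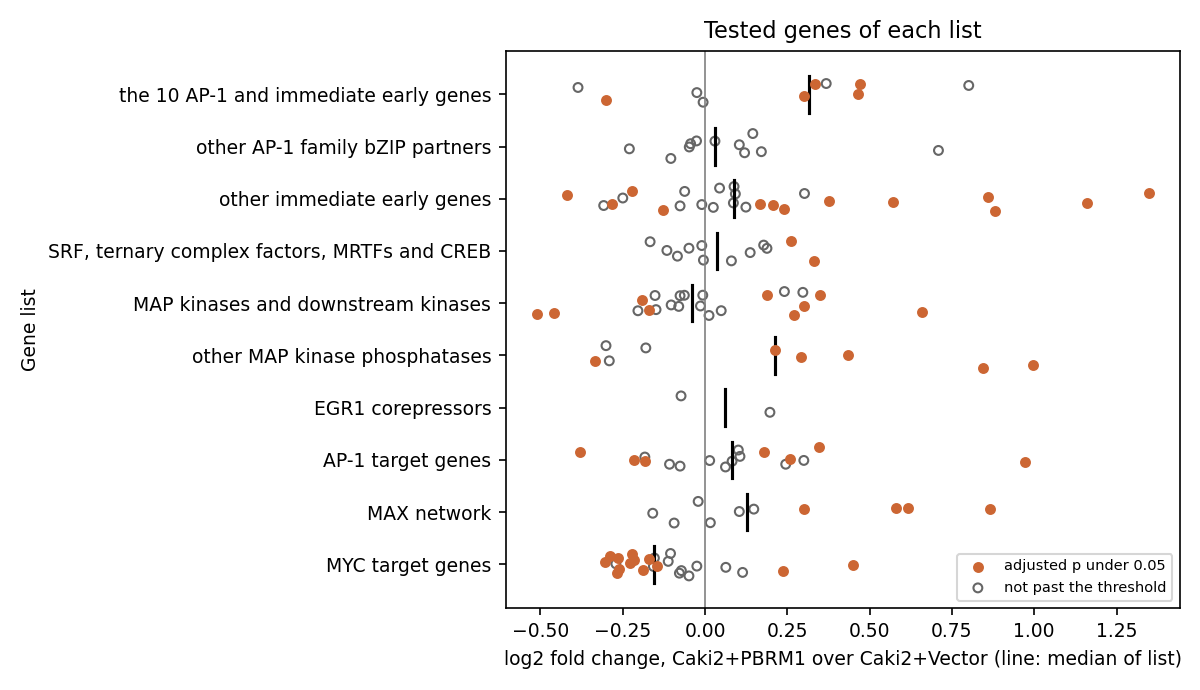
Log2 fold change, Caki2+PBRM1 over Caki2+Vector, of the tested genes of each list, with filled points for an adjusted p under 0.05 (limma) and a line at the median of the list. The MYC targets sit mostly below 0 with a median of -0.16, the bZIP partners of AP-1 hold no filled point, and CTGF at 1.35 is the highest point.

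The tested genes most like JUN over the 6 samples, by Pearson correlation of log2(normalized count + 1), were TCTN1 (a ciliary protein), MYO1C (a class I myosin) and GPC1 (a glypican of the cell surface), with r of 0.999, 0.998 and 0.998. JUND had 0.983, FOSL2 0.951 and DUSP1 0.871, while JUNB had 0.409 and MYC -0.695. The points share their libraries, including the low Caki2+Vector A, and the group difference is part of each r.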

How the data were processed

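Groups and replicate letters were taken from the labels (3 Caki2+Vector and 3 Caki2+PBRM1 samples, 1 file each). Per the paper, the authors removed adapters, poor reads and rRNA reads, aligned the rest to hg19 with STAR, counted reads on 25369 genes with htseq-count and used DESeq2. The deposited values are a signal per gene: read counts divided by a size factor for the sample, from 0.834 to 1.191, without division by length. Of the values, 100.0% were whole multiples of 1 step per file (tolerance 0.01 reads), so whole reads were recovered and used only for the depth, for chi-square values of replicates and for the edgeR 4.0.16, DESeq2 1.42.0 and voom alternatives.

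Genes with at least 10 normalized counts in at least 3 samples (13303) were compared on the log2(normalized count + 1) scale by limma (version 3.58.1, run under R 4.3.3, with trended and robust variance and no replicate block) and Benjamini-Hochberg adjustment over all of them. Fold changes on that scale understate those of low genes. The script was tested on simulated data. Exact permutation tests are two-sided. Levels of different genes were compared only per kilobase of exon. Gene positions, exon lengths and GC were read from GENCODE models on GRCh37 (hg19), with 97.5% of tested genes matched, older symbols included, and promoters come from RefSeq on GRCh38.p14.

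The 10 genes and the lists were chosen with earlier results of these data known. Named were the 10 genes, PBRM1, list genes past the threshold (all when up to 4 passed, otherwise the 2 highest and 2 lowest whose higher group had a mean normalized count of 50 or more) and the 3 genes most like JUN. A list gene that the rule names is not reported here. Other list genes given with values (ATF3, MAF, NAB2, MKL2, SRF, MAX, CCND1 and genes under the filter) were chosen after their values were seen. The correction for GC content and length was chosen after seeing the data. Alternatives were other tests, filters, pseudocounts, scalings, a replicate block, an adjusted p of 0.01 and each sample left out. Computations outside R used Python 3.11.15, numpy 2.4.6, pandas 2.3.3, scipy 1.17.1 and matplotlib 3.10.9.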

Additional observations from a re-analysis of the deposited data

How the results depend on the processing

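JUN, JUND, FOSL2, DUSP1 and MYC kept their direction and passed the threshold in each alternative run. FOSL1 ran from -0.122 to 0.052 and JUNB from -0.142 to 0.068 with 1 sample left out, each past the threshold only without Caki2+Vector A, and correction for GC content and length took FOSL1 to 0.041. The number of downregulated genes among the 10 was 1 to 3 with 1 sample left out. EGR1 had 0.908 with edgeR and 0.820 after the GC and length correction, both past the threshold, and 0.575 to 1.136 with 1 sample left out. Over all tested genes, 1734 were lower in Caki2+PBRM1, but 1057 with DESeq2, 2777 with scaling by library totals and 1025 at an adjusted p under 0.01. Scaling by library totals also moved the median log2 fold change of all genes from -0.0036 to -0.058. The cause was not tested, beyond this shift and the stricter threshold of the last count. The count test by edgeR on the recovered reads called 2194 genes higher and 1836 lower, and DESeq2 1496 higher. The replicate letters did not pair the samples: deviations from the group mean had r of -0.008 to 0.014 across genes between samples with the same letter, and not every sample correlated best with its own letter. With the letter as a replicate block, 2249 genes were higher and 1858 lower, and the block changed no call among the 10. The GC and length correction was chosen after seeing the data. All 49 family share differences recomputed moved by less than 1 SD of the replicates. Of 396 recomputed counts of the other lists, 348 stayed within 1.5 times the original count. DESeq2 and an adjusted p under 0.01 each called 3 MAP kinase genes higher and 2 lower, 2 MAX network genes higher and 1 other immediate early gene lower, against 5, 4, 4 and 4. With 8 to 26 reads in a sample, FOS, FOSB and EGR1 are limited by depth.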
